A study of Mus musculus with 22 samples.

Results

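The stem cell and self-renewal genes examined were 10 genes taken by name: Mecom, Hlf, Prdm16, Hmga2, Mllt3, Msi2, Procr, Ly6a, Cd34 and Slamf1. All 10 were found among the 21938 protein-coding genes of the annotation. For each, every H3K27ac peak over the gene body or within 20 kb of it was collected from the lists of 3 libraries, which gave 23, 23 and 19 peaks in replicates 1, 2 and 3. A peak within 2.5 kb of an annotated transcription start site (TSS) of the gene was its TSS peak. A peak further than that from every annotated TSS was distal, and a peak at the TSS of a neighbouring gene was kept apart as a class of its own.

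The cells were KL cells, myeloid progenitors that lack lineage markers, carry cKit and were sorted as Sca1-negative, from bone marrow of BcorΔE9-10 mice (strain C57BL/6). The mice carried the floxed allele, Bcorfl/y, and were therefore male, and were positive for scl-Cre-ERT. The mice had received intraperitoneal tamoxifen, 1 mg on each of 5 days at 3 to 6 months of age, and were studied 20 weeks later. The floxed exons 9 and 10 of Bcor, an X-linked gene of a Polycomb repressive complex, are removed by a Cre that a stem cell enhancer of Scl drives, so recombination starts in stem cells and the KL cells studied are their progeny. Of 22 samples in 11 groups, these 3 were used, and the 19 others were not analysed here. The BcorWT samples among the others were of other histone marks or input. No difference in H3K27ac between genotypes can therefore be given. The libraries are numbered as separate samples of the group.

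Acetylation of histone H3 at lysine 27 (H3K27ac) is laid down at active promoters and enhancers and is removed as genes are silenced. Haematopoietic stem cells are held in an undifferentiated, self-renewing state by a set of transcription factors, chromatin regulators and RNA-binding proteins, and are purified by surface proteins that are lost or gained as cells commit to a lineage. Progenitors sorted as Sca1-negative lie downstream of these stem cells, which is why the genes were read for marks present in the sorted cells. No H3K27ac library of stem cells was among the samples, so marks kept from stem cells and marks gained later cannot be told apart.

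Worked out from the peak lists for 200 bp fragments, replicates 1, 2 and 3 had 18.0, 18.9 and 19.3 M reads in peak calling. A called summit held at least 8, 8 and 9 fragments, so weaker acetylation is not represented. Fold enrichment is the authors' ratio of fragments at a summit to the local background in the same library, with 1 added to both, which understates the ratio where fragments are few. Of the proteins used for the gate, Kit, a receptor that the sorted cells carry, had a TSS peak in each library, at a fold enrichment of 9.77 ± 0.162 (SD, n = 3). Ly6a, the gene of Sca1, had no TSS peak. Cd5, a lineage marker that the sorted cells lack by the gate, had a TSS peak in each library too, at 5.12, 4.06 and 5.85 in replicates 1, 2 and 3. Genes of the other lineage markers of the gate are not reported here. Bcor itself had a TSS peak in all 3 libraries (mean fold enrichment 9.12), which lies outside the deleted exons and checks nothing about the deletion. In a bulk library, fewer acetylated cells and less acetylation in each cell cannot be told apart.

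Of the 10 genes, 5 carried a TSS peak in all 3 libraries: Msi2, Prdm16, Cd34, Hlf and Hmga2. Mecom had a TSS peak in replicate 1 alone. Mllt3, Procr, Ly6a and Slamf1 had none in any library. Across all protein-coding genes, 43.9% had a TSS peak in all 3 libraries, 46.9% in at least 2 and 49.9% in at least 1, so the count of 5 of 10 lay near the background. At each of the 5 genes the same merged region, formed from overlapping peaks, was present in all 3 libraries. Distal peaks were found in all 3 libraries at Hmga2 and Msi2, against 10.3% of all genes. Long genes offer more room for them, and among the 5007 genes over 50 kb the share was 20.5%, while 2 of the 6 stem cell genes of that length had them. A peak of any class lay in the window of 6 genes in all 3 libraries (57.3% of all genes) and in that of 7 in at least 1 library (63.4% of all genes).

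**Figure D1:**
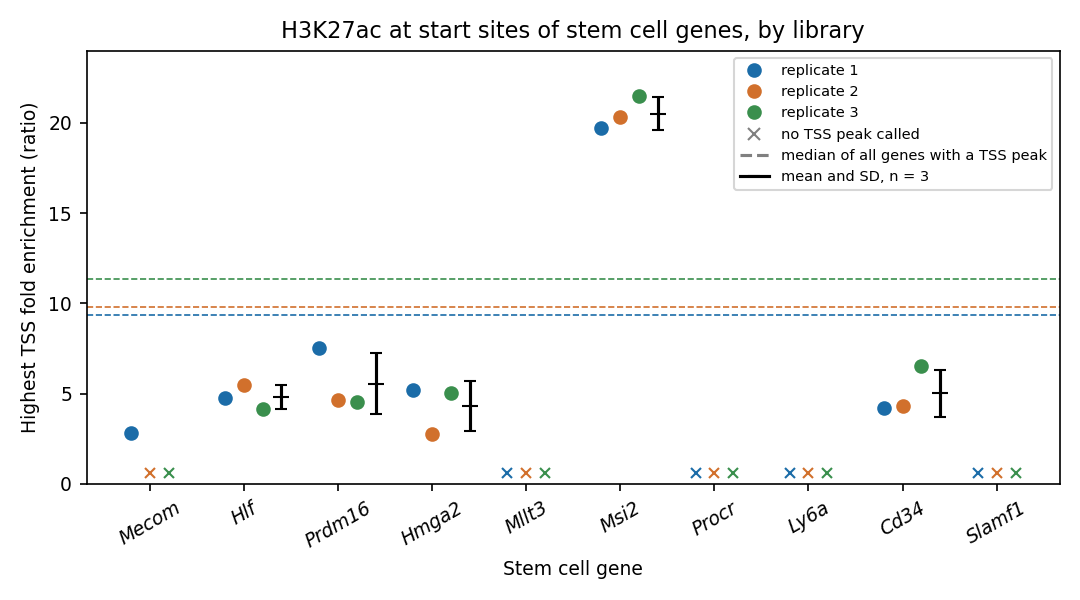
Highest TSS fold enrichment (ratio, linear axis) of each of the 10 stem cell genes in replicates 1, 2 and 3, with a cross where no TSS peak was called, black marks for the mean and SD of 3 libraries and dashed lines for each library's median over all genes with a TSS peak in all 3. Msi2 sits near 20 in each library, the other 4 genes with a TSS peak in every library lie below all 3 medians, and Mllt3, Procr, Ly6a and Slamf1 show crosses throughout.

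The regions that carry distal acetylation in every library are shown as sequence, because they are candidate regulatory elements inside the introns of Hmga2 and Msi2. Each run is the 200 bases centred on the highest summit (RefSeq GRCm38.p6, strand of the gene, 5′ to 3′). Capitals mark a match to any of 6 motifs of blood cell transcription factors, searched on both strands. The words were AGATAA for GATA factors, with the second form TGATAA, and TGTGGT for RUNX factors. They were GGAAGT for ETS factors and CAGCTG for the E-box, with its second form written CAGATG. For C/EBP the word was TTGCNNAA and for AP-1 it was TGANTCA, where N is any base.
Hmga2, chr10:120428878-120429077, minus strand: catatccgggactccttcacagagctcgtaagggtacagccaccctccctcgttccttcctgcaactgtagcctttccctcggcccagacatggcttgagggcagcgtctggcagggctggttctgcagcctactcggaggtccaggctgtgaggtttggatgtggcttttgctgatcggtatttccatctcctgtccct
Msi2, chr11:88614244-88614443, minus strand: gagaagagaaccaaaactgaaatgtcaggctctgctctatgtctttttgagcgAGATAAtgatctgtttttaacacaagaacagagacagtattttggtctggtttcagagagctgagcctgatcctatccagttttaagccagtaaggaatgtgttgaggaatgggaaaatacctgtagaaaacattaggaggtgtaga
Msi2, chr11:88599044-88599243, minus strand: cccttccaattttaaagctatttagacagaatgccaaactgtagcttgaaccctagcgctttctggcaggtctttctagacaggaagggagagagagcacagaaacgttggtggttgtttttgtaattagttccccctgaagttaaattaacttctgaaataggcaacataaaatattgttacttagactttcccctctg

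A single match was found, a GATA word in the Msi2 region at 104 kb from the start site. Over all 14757 distal regions of the 3 libraries, windows of the same length held GATA in 13.5%, RUNX in 16.4%, ETS in 14.8%, the E-box in 27.9%, C/EBP in 7.31% and AP-1 in 6.13%. The Hmga2 window had 58.0% GC and 7 CpG pairs, and the Msi2 windows had 40% GC each with 1 and 2 CpG pairs. A match to these letters is a description of the window and not a bound site.

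Among the transcription and chromatin regulators, Hmga2 and Prdm16 had TSS peaks of low fold enrichment in all 3 libraries. Hmga2 (chr10:120361275-120476469, minus strand) encodes an architectural chromatin protein that is high in fetal stem cells. Its highest TSS fold enrichment was 5.20, 2.75 and 5.04 in replicates 1, 2 and 3, with 15, 10 and 16 fragments at the summit. The TSS peaks of Hmga2 fell in a pair of neighbouring regions within 1.20 kb of the start site, with both summits in an intron. The highest value of replicate 1 came from a region not called in replicate 2. In chr10:120475720-120476217, the region shared by all 3 libraries, the values were 3.43, 2.75 and 5.04, with 10, 10 and 16 fragments.

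Hmga2 also carried an intronic element. The distal region chr10:120428418-120429256, 47.5 kb downstream of the start site, had a fold enrichment of 5.46, 8.60 and 5.53 (6.53 ± 1.79, SD, n = 3). It was higher than the TSS of the same gene in each library. The mean difference was 2.20 ± 3.16 (SD, n = 3), of which replicate 2 made the greatest part, and an exact permutation test that flips the signs of the 3 differences gave a two-sided p of 0.25, its smallest possible value. Further distal peaks at 14.4 kb and 98.9 kb were each called in 1 library.

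Prdm16 (chr4:154316125-154636873, minus strand), a zinc finger regulator needed to maintain stem cells, had a TSS fold enrichment of 7.51, 4.63 and 4.56, with 21, 13 and 13 fragments. Replicate 1 stood above the other two, but its 21 fragments lay within the Poisson 95% interval of theirs (6.92 to 22.2). The region, chr4:154635280-154636388, has its summit 0.705 kb downstream of the most upstream start site, in an intron, and also lies within 2.5 kb of the start of Gm13111, an antisense gene, so the gene to which the mark belongs cannot be told from its position. A second intronic region, 86.9 kb downstream at the start of the antisense gene Gm13133, had a fold enrichment of 6.83 in replicate 1 and 4.30 in replicate 2 and was not called in replicate 3. Distal peaks were called in replicate 1 at 94.0 kb and in replicate 2 at 18.7 kb, so none was shared.

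Hlf (chr11:90336536-90390895, minus strand), a PAR bZIP transcription factor typical of stem cells, had a TSS fold enrichment of 4.78, 5.50 and 4.18, with 13, 21 and 16 fragments. These are the highest values of each library, and that of replicate 1 came from a region called in that library alone. The region common to all 3, chr11:90387744-90388173, had values of 4.20, 5.50 and 4.18. Its summit lay in an exon 2.96 kb from the most upstream start site. It counted as a TSS peak because GENCODE places further Hlf transcript starts close by. With RefSeq start sites, a choice made after the data had been seen, Hlf kept TSS peaks in 2 libraries and had distal peaks in 3. Weak intronic peaks at 34.9, 40.7 and 42.9 kb were called in 1 library each.

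Mecom (chr3:29951296-30548008, minus strand), the locus of the Evi1 zinc finger protein, had 1 peak in all the lists. That peak, chr3:30508033-30508338 in replicate 1, had a fold enrichment of 2.85 from 10 fragments (Poisson 95% interval 4.80 to 18.4) against a background of 2.86, each entering the ratio with 1 added. It lies in an intron 39.9 kb downstream of the most upstream start site and 1.15 kb from the start of a shorter Mecom transcript. In replicates 2 and 3 the peak nearest to any Mecom start site was 54.0 kb and 47.3 kb away. With a TSS window of 1 kb no library had a TSS peak at Mecom.

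Mllt3 (chr4:87769925-88033364, minus strand), a chromatin reader of acetylated histone tails that supports stem cell maintenance, had no peak in its window of 303 kb in any library. The nearest peak lay 61.3 kb from its start sites in each of the 3 libraries. All words of 75 bases, the read length, within 2.5 kb of its start sites occurred once in the genome (100%). Weaker acetylation than 8 or 9 fragments at a summit would not have been listed.

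Msi2 (chr11:88339382-88718513, minus strand), an RNA-binding protein that regulates translation in stem cells and leukaemia, had the highest fold enrichment at the TSS of the 10 genes. The values were 19.7, 20.3 and 21.5 in replicates 1, 2 and 3, with 60, 64 and 69 fragments at the summit. The Poisson 95% intervals of the fragments, 45.8 to 77.2, 49.3 to 81.7 and 53.7 to 87.3, overlapped. The region, chr11:88717364-88719109, spans the start site and is also within 2.5 kb of the start of the noncoding gene C030037D09Rik. Among all genes with a TSS peak, these values stood at percentiles 89.9, 93.0 and 89.8 of their libraries.

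The Msi2 gene body held 12 distal regions, all in introns, of which 2 were found in all 3 libraries. The stronger, chr11:88613757-88614750, lay 104 kb downstream of the start site with a fold enrichment of 5.44, 5.81 and 4.37 (5.21 ± 0.753, SD, n = 3). The other, chr11:88598791-88599330, lay further downstream, with 2.53, 2.57 and 3.44. Of the remaining 10, 2 were called in 2 libraries and 8 in 1. The highest distal fold enrichment was below that of the TSS in 3 of 3 libraries, a mean difference, distal minus TSS, of -15.0 ± 1.11 (SD, n = 3). The same exact permutation test gave its smallest p, 0.25.

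**Figure D2:**
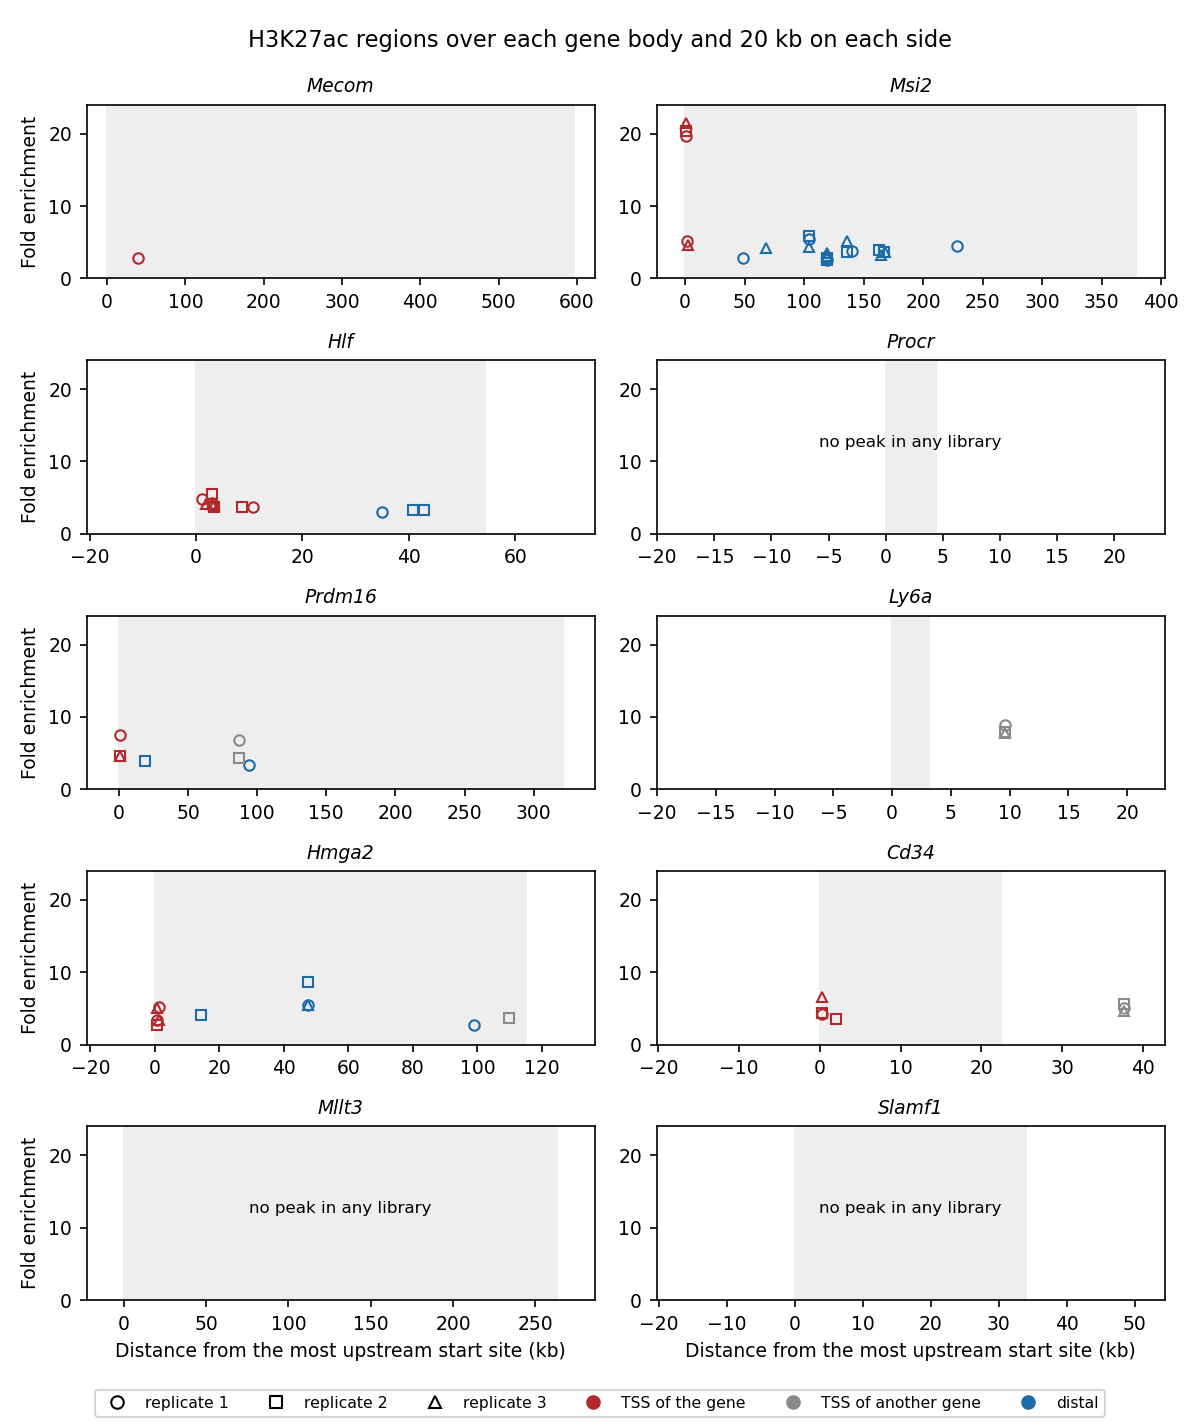
H3K27ac regions around the 10 stem cell genes, with distance from the most upstream start site in the direction of transcription (kb, scale set by each gene) on the horizontal axis and fold enrichment (ratio, 0 to 24 in every panel) on the vertical axis. Grey shading is the gene body, marker shapes are replicates, red is a TSS region of the gene, grey a TSS region of another gene and blue a distal region. Msi2 shows 12 distal regions in its gene body, Hmga2 a shared one at 47.5 kb, and the panels of Mllt3, Procr and Slamf1 are empty.

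Of the 4 surface proteins, Cd34 alone had a TSS peak. Cd34 (chr1:194938819-194961279, plus strand) encodes a sialomucin of stem and progenitor cells, and granulocyte and macrophage progenitors inside the KL gate carry it. Its TSS fold enrichment was 4.19, 4.34 and 6.54, with 13, 14 and 22 fragments. Replicate 3 was the high library, although the Poisson 95% intervals (6.92 to 22.2 in replicate 1 and 13.8 to 33.3 in replicate 3) overlapped. The shared region, chr1:194938905-194939340, had its summit in an exon 0.293 kb from the start site. A neighbouring region, chr1:194976371-194976727, had a fold enrichment of 5.10, 5.59 and 4.61 at the start sites of the noncoding genes A330023F24Rik and Gm16897, and was therefore not counted for Cd34.

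Ly6a (chr15:74994877-74998031, minus strand) encodes Sca1, the surface protein whose absence defined the sorted cells. It had no TSS peak in any library, and the peak nearest to its start sites was 8.23, 7.57 and 7.74 kb away. That peak, in the region chr15:74988106-74990060, had a fold enrichment of 8.88, 7.94 and 7.80 and covers the start sites of Gm8000, a pseudogene, and Gm37042. Counting only the start sites of protein-coding transcripts, or those of RefSeq, turned it into a distal peak of Ly6a in all 3 libraries. Of the words of 75 bases within 2.5 kb of the Ly6a start sites, 75.6% occurred once in the genome, against at least 97.7% at the 9 other genes. The part of repeated sequence in the missing TSS peak was not tested.

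Procr (chr2:155751117-155755471, plus strand), the endothelial protein C receptor EPCR, and Slamf1 (chr1:171767127-171801184, plus strand), which encodes CD150, are both used to purify stem cells. Neither had any peak in its window in any library. For Procr the nearest peak was 21.7 to 21.8 kb from a start site, just outside the window, and with flanks of 50 kb its window held a peak in all 3 libraries. For Slamf1 the nearest peak was 73.3 to 73.4 kb from a start site, yet with flanks of 50 kb, which reach beyond the far end of the gene, its window also held a peak in all 3 libraries. The number of genes with a peak of any class in all 3 libraries then rose from 6 to 8. Words of 75 bases around both start sites were nearly all found once (99.5% and 99.2%).

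Ordered by mean TSS fold enrichment, the genes ran from Msi2 (20.5 ± 0.917, SD, n = 3) through Prdm16 (5.57 ± 1.69), Cd34 (5.02 ± 1.32) and Hlf (4.82 ± 0.661) to Hmga2 (4.33 ± 1.37). Msi2 was 3.68 times Prdm16, and their ranges did not overlap. From Prdm16 to Hmga2 each gene overlapped its neighbour, so these 4 had no order beyond the spread between libraries. The median over the 5 genes was 5.20, 4.63 and 5.04 in replicates 1, 2 and 3. Over all genes with a TSS peak in all 3 libraries it was 9.36, 9.78 and 11.3, higher in every library. By mean over the libraries, Hmga2, Hlf, Cd34 and Prdm16 stood at percentiles 2.68, 6.04, 7.49 and 12.1 of these 9637 genes, and Msi2 at 90.7.

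**Figure D3:**
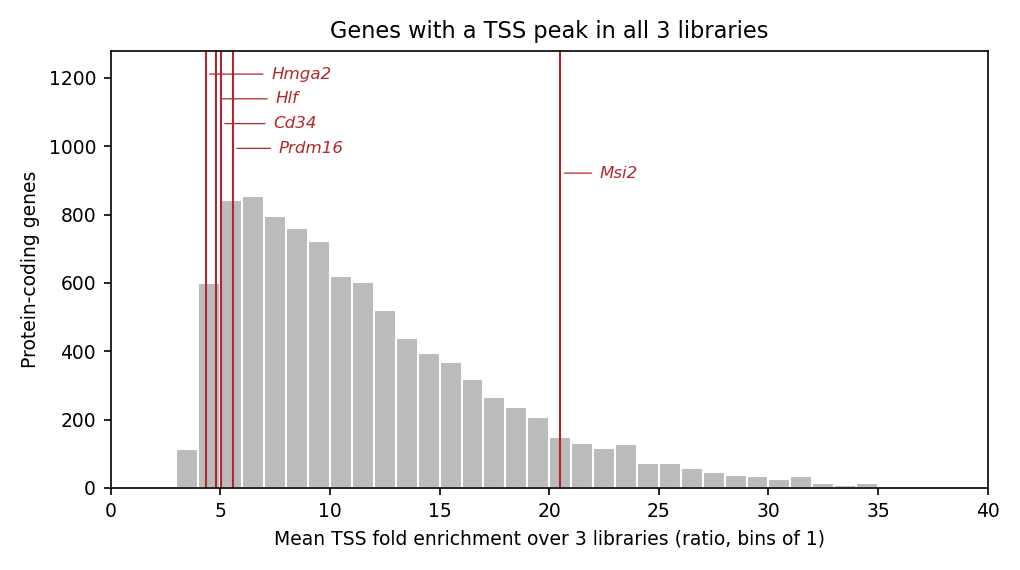
Number of protein-coding genes (bars, bins of 1) by mean TSS fold enrichment over 3 libraries, for the 9637 genes with a TSS peak in all 3, with red lines at the 5 stem cell genes among them. Hmga2, Hlf, Cd34 and Prdm16 lie at the left edge of the distribution, between 4.33 and 5.57, and Msi2 in its right tail at 20.5.

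The calls depended on the peak threshold. With peaks restricted to a −log10 q of at least 5, Msi2 alone kept a TSS peak in all 3 libraries. Hlf and Hmga2 kept theirs in 2 libraries, Prdm16 and Cd34 in 1, and Mecom in none. At Hlf and at Hmga2 the peaks of the 2 libraries lay in different regions, so neither gene kept a shared TSS region. The distal region of Hmga2 at 47.5 kb was still called in all 3 libraries. Msi2 still had a distal peak in each library, but not at the same place: the region at 104 kb was called in replicates 1 and 2, and in replicate 3 the peaks lay in other regions.

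Counted as merged regions, the windows of the 10 genes held 39, of which 10 were found in all 3 libraries, 5 in 2 and 24 in 1. TSS regions were shared by all 3 in 5 of 15 cases (33.3%), against 59.6% of the 19838 TSS regions of the genome. Distal regions were shared in 3 of 20 cases (15.0%), against 16.7% of distal regions in the genome. Distal peaks per 100 kb of window came to 1.43 at Msi2, 1.07 at Hmga2 and 1.06 at Hlf, averaged over the libraries, and to 0.185 at Prdm16, with a mean over all genes of 0.448. The density was 0 at the 6 other genes.

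To ask whether any of the genes lay in a super-enhancer (SE), a long cluster of strongly acetylated regions, peaks were stitched within 12.5 kb and ranked by summed signal. Msi2 was assigned an SE in 3 of 3 libraries, at ranks 882, 746 and 754 among 11779, 12327 and 11525 stitched regions. Of these, 1383, 1083 and 1190 regions counted as SEs in replicates 1, 2 and 3. The paper reports far fewer SEs for these samples, so the calls made here are broader than its own. Of all genes, 5.89% were assigned an SE in all 3 libraries. The Msi2 region was between 1.52 and 2.92 kb long with 1 to 3 peaks, which is the TSS region itself, and the assignment was lost in every library when TSS peaks were left out or peaks were stitched within 20 kb. None of the other 9 genes was assigned an SE in any library.

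Promoter sequence was then set beside the marks, since promoters rich in CpG pairs are acetylated more often than others. In the RefSeq promoter table (GRCm38.p6, 250 bases before to 50 after the start), 9 of the 10 genes had an entry and Ly6a had none. Among 16522 protein-coding genes with an entry, the share with a TSS peak in all 3 libraries was 7.38% where observed over expected CpG was under 0.2 and 85.5% where it was 1.0 or more. Above 0.6 it was 73.6%, and below 0.6 it was 19.1%. Of the 5 stem cell genes above 0.6, Prdm16 (0.939), Hlf (0.893) and Msi2 (1.00) had a TSS peak in all 3 libraries, while Mecom (1.02) and Mllt3 (0.795) did not. The Mecom entry, chr3:30509710-30510009, lies inside the gene and does not describe the promoter of its most upstream start site, at chr3:30548008. For Hlf, the entry covers the most upstream start site, while the region shared by all 3 libraries had its summit 2.96 kb from that site. With RefSeq start sites, chosen after the data had been seen, Hlf had TSS peaks in 2 libraries. Of the 4 below 0.6, Cd34 (0.374) and Hmga2 (0.544) had a TSS peak in all 3 libraries, while Procr (0.528) and Slamf1 (0.223) had none. Over all RefSeq promoters the median was 0.384, so Cd34 lay near it, Hmga2 and Procr above it and Slamf1 below it.

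**Figure D4:**
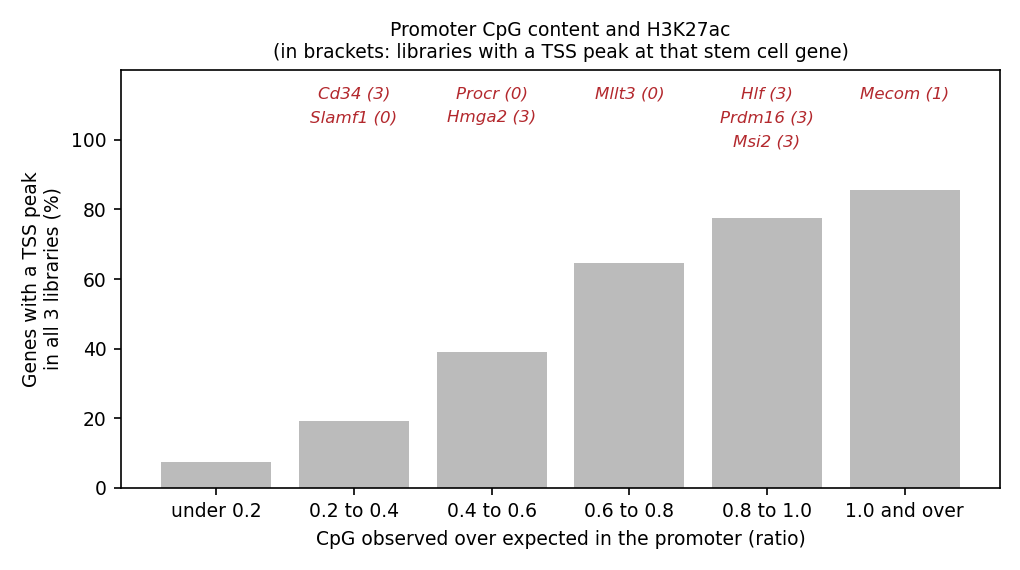
Percentage of protein-coding genes with a TSS peak in all 3 libraries (bars), by observed over expected CpG in the promoter (ratio, 6 bins). Names above the bars are the 9 stem cell genes with a promoter entry in that bin, with the number of libraries that had a TSS peak in brackets. The entry of Mecom lies inside the gene, downstream of its most upstream start site. The count of 3 at Hlf is for GENCODE start sites and is 2 with RefSeq start sites. The bars rise from 7.38% to 85.5%, and Mecom and Mllt3 stand in high bins with 1 and 0 libraries while Cd34 and Hmga2 stand in lower bins with 3.

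Promoters of the 4 combinations are shown: Prdm16 with many CpG pairs and a TSS peak, Mllt3 with many and none, Cd34 with fewer and a TSS peak, and Slamf1 with fewer and none. Each run ends at the base before the most upstream annotated start (RefSeq GRCm38.p6, strand of the gene, 5′ to 3′), and capitals mark CpG pairs.
Prdm16, chr4:154636874-154637123, minus strand: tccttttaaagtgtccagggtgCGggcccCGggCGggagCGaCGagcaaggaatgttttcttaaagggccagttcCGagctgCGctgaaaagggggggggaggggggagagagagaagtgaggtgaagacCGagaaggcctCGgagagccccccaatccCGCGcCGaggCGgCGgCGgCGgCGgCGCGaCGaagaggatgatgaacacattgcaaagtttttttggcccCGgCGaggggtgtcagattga
Mllt3, chr4:88033408-88033657, minus strand: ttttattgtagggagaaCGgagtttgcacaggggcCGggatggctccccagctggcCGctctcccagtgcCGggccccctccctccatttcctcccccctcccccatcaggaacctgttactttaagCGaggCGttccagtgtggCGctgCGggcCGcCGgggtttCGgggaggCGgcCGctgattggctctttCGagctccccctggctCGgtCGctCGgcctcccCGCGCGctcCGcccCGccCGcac
Cd34, chr1:194938571-194938818, plus strand: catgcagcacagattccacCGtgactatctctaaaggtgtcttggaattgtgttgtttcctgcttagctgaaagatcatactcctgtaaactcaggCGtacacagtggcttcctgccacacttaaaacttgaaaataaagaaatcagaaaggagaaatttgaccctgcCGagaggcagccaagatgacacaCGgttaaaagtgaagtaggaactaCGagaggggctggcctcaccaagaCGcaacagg
Slamf1, chr1:171766882-171767126, plus strand: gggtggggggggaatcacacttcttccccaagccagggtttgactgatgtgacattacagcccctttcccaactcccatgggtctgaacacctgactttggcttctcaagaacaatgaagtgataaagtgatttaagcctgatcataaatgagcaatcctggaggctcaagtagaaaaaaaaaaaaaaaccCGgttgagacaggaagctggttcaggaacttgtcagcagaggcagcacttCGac

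The Prdm16 and Mllt3 runs held 22 and 23 CpG pairs, and those of Cd34 and Slamf1 held 6 and 2. By count, Mllt3 thus had no called acetylation at a promoter with as many CpG pairs as that of Prdm16. Its observed over expected CpG was lower, however, at 0.795 against 0.939, and its run was not free of exon sequence. Cd34 had called acetylation at a promoter with fewer CpG pairs than those of Prdm16 and Mllt3. Its full entry held 7 pairs, the median over all promoters. The comparison is a description over 9 genes.

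Lists of other genes were read in the same way. Of 28 further stem cell genes, 13 had a TSS peak in all 3 libraries, 3 in 1 or 2 and 12 in none. The highest was Etv6, an ETS family repressor, at 20.5 ± 3.03 (SD, n = 3), and the lowest Ctnnal1, a stem cell marker known as alpha-catulin, at 5.53 ± 2.25. Each lay within the spread between libraries of the gene next in order, at 20.4 ± 3.41 and 5.67 ± 0.905. Those without a TSS peak included Hoxb5, Tek, Fgd5, Esam, Robo4, Mycn, Cdkn1c, Lin28b, Gfi1b, Ndn and Sox17, of which Tek is a receptor and Esam and Robo4 are endothelial proteins. Medians over the 13 were 7.47, 7.47 and 8.39 in replicates 1, 2 and 3, against 5.20, 4.63 and 5.04 for the 5 genes above. Distal peaks in all 3 libraries were found at 11 of the 28.

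Of 15 genes of myeloid progenitors, 10 had a TSS peak in all 3 libraries, 2 in 1 or 2, and Ms4a3, Fcgr3 and Irf8 had none. Kit was highest at 9.77 ± 0.162 (SD, n = 3) and Csf1r, the receptor of macrophage colony-stimulating factor, lowest at 4.58 ± 0.252. Of 10 megakaryocyte and erythroid genes, 3 had a TSS peak in all 3 libraries and 3 in 1 or 2, with Tfrc, the transferrin receptor, at 9.66 ± 2.57 and Itga2b, the integrin CD41, at 2.98 ± 0.330. Gata1, Epor, Pf4 and Car1 had none.

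Of 6 lymphoid genes, 2 had a TSS peak in all 3 libraries, the lower being Cd5, the lineage marker of the gate, at 5.01 ± 0.901 (SD, n = 3), and 4 had none. Of 6 genes of mature granulocytes, Ngp had a TSS peak in 1 library and S100a8, S100a9, Camp, Ltf and Mmp9 had none. The 8 non-haematopoietic genes (Alb, Col1a1, Myh6, Neurod1, Cdh1, Krt5, Ins2 and Gfap) had none in any library.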

How the data were processed

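H3K27ac ChIP-seq was analysed in 3 libraries of BcorΔE9-10 KL cells, grouped by their titles. Per the labels, the authors trimmed reads with cutadapt 1.7, aligned them to GRCm38 with Bowtie2 and called peaks with MACS2 2.1.1, in each library separately. The control and settings of the peak caller are not given in the sources used here. The deposited lists give a fold enrichment (a ratio), the −log10 of p- and q-values, and a score, which was not used. The largest deposited q-value was 0.0499.

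Where rows share an interval, the summit of highest fold enrichment stood for the peak. Genes were GENCODE M21, with coordinates counted from 1, and the peak end furthest along a chromosome lay at 99.9% of its length. Fragments at a summit were solved from fold enrichment and p-value (100% of rows), and depth from the background for 200 bp fragments. Poisson and other intervals are 95% and cover counting error only, since molecular identifiers were not used. Steps were tested on simulated data (Python 3.11.15, numpy 2.4.6, scipy 1.17.1, pysam 0.24.0).

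Peaks overlapping by 1 bp were merged into regions. SEs were stitched regions past the slope-1 point of signal, fold enrichment times length. All 10 genes are named. From each comparison list the highest, the lowest and those without a TSS peak are named, except that of the lymphoid list Cd5 alone is, and 1 further item is not reported here. The genes and lists were chosen with earlier results of these data known. P-values measure the spread between these samples.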

Additional observations from a re-analysis of the deposited data

How the results depend on the processing

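A −log10 q of at least 5 lowered the number of genes with a TSS peak in all 3 libraries from 5 to 1, that of shared regions from 10 to 3, and raised the median TSS fold enrichment from 4.96 to 20.5, that of Msi2 alone. The number with distal peaks in all 3 libraries rose from 2 to 4 with start sites of protein-coding transcripts (adding Ly6a and Cd34), with RefSeq start sites (adding Ly6a and Hlf; chosen after seeing the data), and when 2 of 3 libraries sufficed (adding Hlf and Prdm16). RefSeq start sites also moved the median to 5.54, without Hlf. The number of genes with an SE fell from 1 to 0 without TSS peaks and with peaks stitched within 20 kb.

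Leaving out each replicate in turn gave between 2 and 4 genes with distal peaks, with 4 without replicate 3 (Hlf and Prdm16 added), between 11 and 13 shared regions, and a median of 4.83 to 5.12. The numbers of genes with a TSS peak (5), any peak (6) and an SE (1) stayed as they were.

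No paired analysis was possible because all files used belong to 1 group. Peaks of fewer than 8 or 9 fragments were not listed, so weak acetylation is not represented, and the TSS folds of the genes other than Msi2 rest on 10 to 22 fragments.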
